A study of Felis catus with 15 samples.

Results

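The comparison described here set cat corpus epididymis explants cultured with extracellular vesicles against explants in culture alone. It used 10 of the 15 RNA-seq libraries of the series, 5 per condition, and took the same-numbered libraries as 5 pairs, each difference being the library with vesicles minus its culture library. The series text gives the vesicles' source as the caput, the region just upstream of the corpus, and names 3 conditions: fresh tissue, culture alone and culture with vesicles. The titles call the conditions culture and culture+EVs. Both carry the code D3 and fresh tissue D0. The meaning of that code, the vesicle dose and the vesicle donors are not stated. The labels also do not say that replicates are separate animals, so each p-value reflects variation among these libraries only, which may be technical. The stated question was what caput vesicles do to the corpus transcriptome. Results are given for 5 pairs and again without pair 3, because the culture library of that pair held very few mitochondrially encoded counts.

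The epididymis is the duct in which sperm leaving the testis acquire motility and the capacity to fertilise. Its epithelium secretes proteins into the lumen and also sheds extracellular vesicles, membrane particles that carry proteins, lipids and small RNAs to sperm and to epithelial cells further along the duct. An explant is a piece of tissue kept alive in medium, with epithelium, stroma and resident immune cells together, and without its blood supply.

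Total counts were 19308190 to 25454399 in culture and 17308832 to 27420218 with vesicles. Epithelial identity was present in all 10 libraries: the general epithelial marker list summed to 3931 to 11048 CPM (counts scaled to a common library size) in culture and 4207 to 7651 with vesicles, and none of its 20 markers was at 0 in all 10. Red blood cell markers were at or near 0, with HBM, HBA1 and ALAS2 at 0 counts in all 10 libraries. The library culture 3 stood apart. It had counts in 18900 genes against 20304 to 21328 in the other 9 libraries. Of 8560 genes with a symbol and a mean log2 CPM of 4 or more, 1631 lay over 2-fold beyond the range of the other 9 libraries there, 667 above it and 964 below it, against 0 to 15 genes for each of the other libraries. Results that include this library rest on it in part, and its pair is left out in the second of the 2 analyses below.

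**Figure D1:**
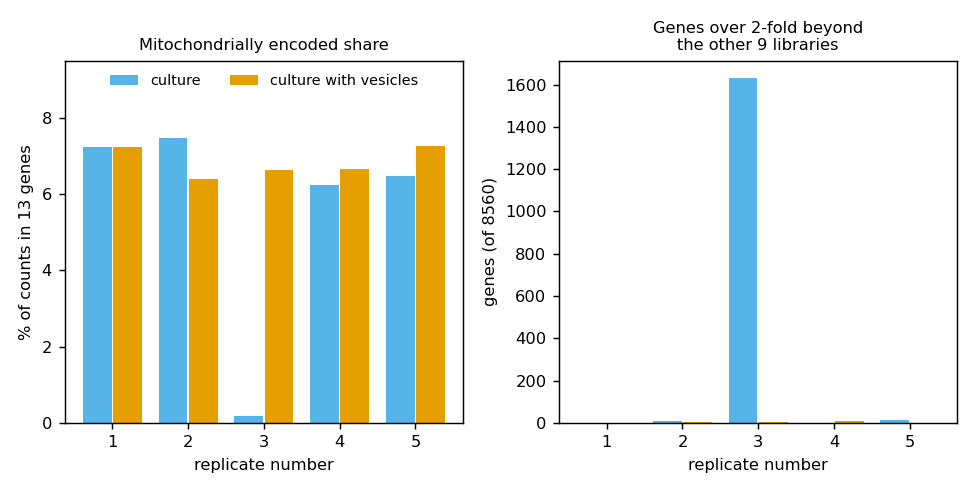
Percentage of counts in the 13 mitochondrially encoded protein genes (left) and number of genes lying over 2-fold outside the range of the other 9 libraries (right), as 1 bar per library by replicate number, blue for culture and orange for culture with vesicles. Culture 3 had a mitochondrial share of 0.179% and 1631 such genes, while each of the other 9 libraries had a share of 6.23% or more and at most 15 such genes.

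No gene was called in either analysis. With 5 pairs, 0 of 16845 genes tested (0%) passed an adjusted p of 0.05 in edgeR's quasi-likelihood test with the replicate number as a block, and the smallest adjusted p was 0.938. Every gene named below had an edgeR adjusted p of 0.938 or more with 5 pairs and, apart from UPK3BL2, of 0.935 or more without pair 3. At an unadjusted p under 0.05 there were 266 genes, 80 higher (0.475% of those tested) and 186 lower (1.10%) with vesicles. Without pair 3, 0 of 16972 genes (0%) passed, with a smallest adjusted p of 0.111, and 858 genes had an unadjusted p under 0.05, 362 higher (2.13%) and 496 lower (2.92%). Where no gene differs, a share of about 0.05 of genes is expected at an unadjusted p under 0.05. The share with 5 pairs was below that, and the share without pair 3 was about equal to it. Neither count by itself shows that genes responded. The count of 266 was 167 without pair 1 and 165 without pair 2, and that of 858 was 531 when pair 2 was also left out, 434 with pair 4 and 1741 with pair 5 left out. The other tools called few: DESeq2 called 0 genes with 5 pairs and 14 without pair 3, and limma-voom with sample quality weights called 1 with 5 pairs and 0 without pair 3.

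The pairs shared much of their expression level and little of their difference. Replicate number accounted for 67.3% of the variance of log2 CPM over the 10 libraries (4 degrees of freedom), vesicles for 5.90% (1 degree) and the rest for 26.8% (4 degrees). Without pair 3 these were 77.8%, 5.42% and 16.8%. Across genes, which are not independent replicates, the differences of any 2 pairs correlated at -0.163 to 0.135 over the 10 combinations. The difference of pair 3 was the widest, with a standard deviation over genes of 1.16 on the log2 scale against 0.398 to 0.528 in the other 4 pairs. The number of libraries still allowed large differences to be bounded: with 5 pairs, the 95% interval of the fold change lay within 2-fold in both directions for 12958 genes (76.9%), and without pair 3 for 14597 genes (86.0%). The median half-width of that interval was 0.50 on the log2 scale with 5 pairs and 0.28 without pair 3.

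Of the 10 genes with the smallest p and one sign in all 5 pairs, 7 were lower and 3 higher with vesicles. Of all genes tested, 2.67% were higher and 2.81% lower in all 5 pairs. CRABP1, which binds retinoic acid in the cytosol, stood at 13.4, 25.3, 138, 13.8 and 24.6 CPM in cultures 1 to 5 and at 10.3, 13.5, 65.1, 5.38 and 16.4 CPM with vesicles. It was lower in every pair, but the groups overlapped, with replicate 3 high in both conditions. Here and below, a fold change with 5 pairs is followed in square brackets by the value without pair 3, each as log2 ± SE. Its fitted log2 fold change was -0.86 ± 0.17 [-0.80 ± 0.16] (SE, n = 5 and 4 pairs; edgeR adjusted p = 0.938 and 0.935). In bulk tissue, fewer cells of a type and less RNA per cell cannot be told apart, which holds for all values here.

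The other genes of this set that were lower were PDGFRL, a receptor-like relative of the PDGF receptors, at -0.68 ± 0.15 [-0.66 ± 0.13], the metallopeptidase AMZ1 at -0.93 ± 0.21 [-0.83 ± 0.21], the actin regulator CARMIL2 at -0.71 ± 0.17 [-0.60 ± 0.15], CD1H11orf71 at -0.78 ± 0.20 [-0.64 ± 0.17], and NDRG1 and BNIP3, described below with the hypoxia genes. The higher ones were the protease inhibitor SLPI at 0.86 ± 0.21 [0.90 ± 0.19], the extracellular proteoglycan MAMDC2 at 0.52 ± 0.13 [0.57 ± 0.09] and RNASE10. SLPI ranged from 2 to 509 counts over the cultures and from 5 to 1277 with vesicles. Its difference rested on few reads in pair 1 (2 in culture and 5 with vesicles), pair 3 (16 and 41) and pair 4 (21 and 24). MAMDC2 stood at 19.3, 53.6, 74.7, 37.0 and 72.3 CPM in cultures 1 to 5 and at 28.5, 68.2, 94.2, 66.6 and 104 CPM with vesicles. It was higher in 5 of 5 pairs, with overlapping groups.

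Secretory proteins of the epididymis are the classic products of its epithelium, and RNASE10, a secreted ribonuclease-like protein made mainly in the proximal duct, had the smallest p among them. RNASE10 stood at 3.54, 3.63, 1.67, 2.74 and 3.45 CPM in cultures 1 to 5 and at 4.81, 5.99, 4.26, 3.90 and 6.20 CPM with vesicles. All 5 libraries with vesicles lay above all 5 cultures. Over all genes tested, the 2 conditions did not overlap for 7 genes that were higher (0.0416%) and 4 that were lower (0.0237%) with vesicles. The 4 lower genes were CD1H11orf71, HDHD5 and a pair without a symbol. Without pair 3 the groups of 4 did not overlap for 64 genes higher (0.377%) and 61 lower (0.359%). RNASE10 had a log2 fold change of 0.76 ± 0.20 [0.62 ± 0.15], with an interval of 0.30 to 1.22 with 5 pairs. On a scale fitted to all 15 libraries it ranged over 62.0 to 74.6 CPM in fresh tissue, over 1.66 to 3.66 CPM in culture and over 3.94 to 6.26 CPM with vesicles, so that every library with vesicles was also below every fresh one.

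As a list, caput-associated genes, RNASE10 among them, lay closer to 0. Of 16 tested members of this list, 11 were higher and 5 lower with vesicles with 5 pairs (median log2 fold change 0.13, against 0.01 over all genes tested), 1 had an unadjusted p under 0.05, and 0 were called. Without pair 3, 12 were higher (median 0.12, against -0.01 over all genes). The receptor tyrosine kinase ROS1, needed for the initial segment of the caput in rodents, was at 0.13 ± 0.18 [-0.03 ± 0.12], with a 95% interval of -0.30 to 0.56. The secreted chaperone CLU was at -0.03 ± 0.17 [-0.08 ± 0.13] (interval -0.44 to 0.38). It was abundant throughout, with 13851 to 34190 CPM in culture and 15178 to 35095 CPM with vesicles.

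The wider list of epididymal secretory proteins was split, with 12 of 27 tested members higher and 15 lower (median -0.02), and without pair 3 with 8 higher and 19 lower (median -0.08). NPC2, which carries cholesterol in the lumen, was at -0.08 ± 0.18 [-0.20 ± 0.14] (interval -0.49 to 0.34). CRISP1, a sperm-coating protein, was at 0.39 ± 0.35 [-0.01 ± 0.11], with an interval of -0.27 to 0.25 without pair 3. The 5-pair value rested on culture 3, where CRISP1 stood at 600 CPM against 1763 to 2819 in the other cultures and 1742 to 3077 with vesicles. GPX5, a secreted antioxidant enzyme, was at 0.80 ± 0.89 [0.30 ± 0.98] with pair differences from -2.68 to 3.20, and with 9 to 134 counts per library its direction was not detectable at this depth and spread.

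**Figure D2:**
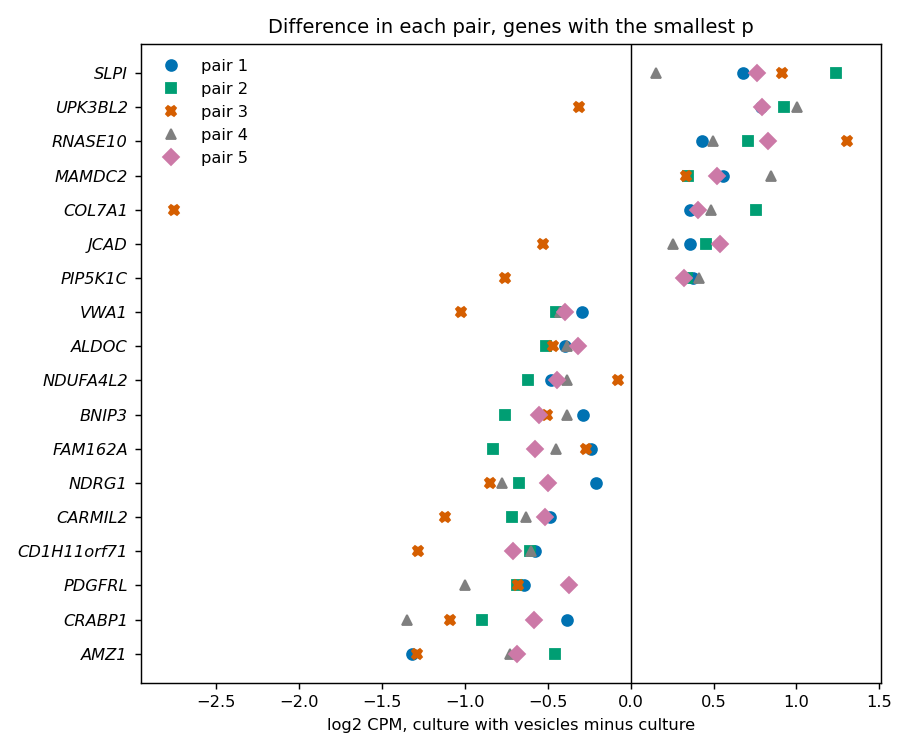
Log2 CPM with vesicles minus log2 CPM in culture for each of the 5 pairs (symbols), for the genes with the smallest p and one sign in every pair of the analysis with or without pair 3, ordered by the fold change without pair 3. Pair 3 (orange crosses) lay on the other side of 0 from the other 4 pairs for UPK3BL2, COL7A1, JCAD and PIP5K1C.

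Leaving out pair 3 brought another set to the top. UPK3BL2, a membrane protein related to the uroplakins that cover the urinary epithelium, stood at 72.1, 9.18, 11.8, 10.9 and 40.1 CPM in cultures 1 to 5 and at 124, 17.5, 9.53, 21.9 and 69.4 CPM with vesicles. It was higher with vesicles by 0.78, 0.92, 1.00 and 0.79 on the log2 scale in pairs 1, 2, 4 and 5, and lower in pair 3 (-0.31). Levels differed between replicate numbers by more than they did between conditions, and the groups overlapped. Without pair 3 its log2 fold change was 0.87 ± 0.07 (SE, n = 4 pairs), with an unadjusted p of 6.51e-06 and an edgeR adjusted p of 0.111. With 5 pairs it was 0.65 ± 0.21 (edgeR adjusted p = 0.938). It was the gene that limma-voom called with 5 pairs (0.86, adjusted p = 0.0248), and DESeq2 called it without pair 3 (adjusted p = 1.32e-12). How the authors counted reads that match related gene copies is not stated.

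Of the other 9 genes with the smallest p without pair 3, NDUFA4L2, ALDOC, BNIP3 and FAM162A are known from the response to low oxygen, MAMDC2 is described above, and 4 remain. Over all genes, 6.20% were higher and 7.70% lower in all of pairs 1, 2, 4 and 5. COL7A1, the collagen of anchoring fibrils under stratified epithelium, was at 262, 205, 1845, 254 and 297 CPM in cultures 1 to 5 and at 336, 347, 273, 355 and 392 CPM with vesicles. Culture 3 was the only high library, and without its pair the 4 libraries with vesicles lay above the 4 cultures (-0.04 ± 0.51 [0.50 ± 0.08]). The lipid kinase PIP5K1C was at 0.14 ± 0.20 [0.36 ± 0.06], the endothelial junction protein JCAD at 0.22 ± 0.18 [0.40 ± 0.07], and the matrix protein VWA1, which was lower in 5 of 5 pairs, at -0.52 ± 0.14 [-0.40 ± 0.06].

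The 14 genes called by DESeq2 without pair 3 were 7 higher and 7 lower. The higher ones were UPK3BL2, COL7A1, MAMDC2, JCAD, PIP5K1C, the metalloelastase MMP12 and ECE1, which processes endothelins (adjusted p = 0.0485 or less). The lower ones were VWA1, a gene without a symbol, and NDRG1, BNIP3, ALDOC, NDUFA4L2 and FAM162A, all of which are known to be induced by low oxygen (adjusted p = 0.0452 or less). DESeq2 gave no adjusted p for 9542 genes in that analysis.

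Of the gene lists, that of glycolysis and the response to low oxygen had the most members lower with vesicles at an unadjusted p under 0.05. Cells deprived of oxygen stabilise the transcription factor HIF-1, which raises glucose uptake, glycolytic enzymes, lactate export and proteins that remodel mitochondria. Of 33 tested members, 30 were lower and 3 higher with 5 pairs, with a median log2 fold change of -0.32 against 0.01 over all genes. There were 12 members with an unadjusted p under 0.05, all lower (background 1.10%), 16 were lower in all 5 pairs (background 2.81%), and 0 were called. Without pair 3, 32 were lower and 1 higher (median -0.24), 22 were lower with an unadjusted p under 0.05 (background 2.92%), 22 were lower in all 4 pairs (background 7.70%), and 0 were called by edgeR and 3 by DESeq2. The count of 12 varied with the pairs used: it was 22 without pair 3, 5 without pair 2, 5 without pair 4 and 7 without pair 5. Genes of the same pathway can vary together between libraries, so the members are not independent observations to set against the background. The lists were also chosen with earlier results of these data known.

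The list's direction was shared by all pairs, at differing size. Its median difference was -0.09, -0.29, -0.61, -0.23 and -0.32 in pairs 1 to 5. Medians below 0 in all 5 pairs were also found for macrophage markers (-0.03 to -0.46), cytosolic ribosomal proteins (-0.01 to -0.29) and retinoid genes (-0.05 to -0.17). Summed over the glycolysis and hypoxia list, the cultures held 15230, 15194, 21225, 13289 and 17687 CPM and the libraries with vesicles 13949, 12378, 16065, 11181 and 14283 CPM (scaled to total counts), against 3579 to 4199 in fresh tissue. Each library with vesicles was below its own culture and above all fresh libraries, and the 2 cultured conditions overlapped. Fibroblast markers (18 of 22) and macrophage markers (13 of 18), whose summed levels are given with the cell types below, were also mostly on the lower side, and their part in this difference was not tested.

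**Figure D3:**
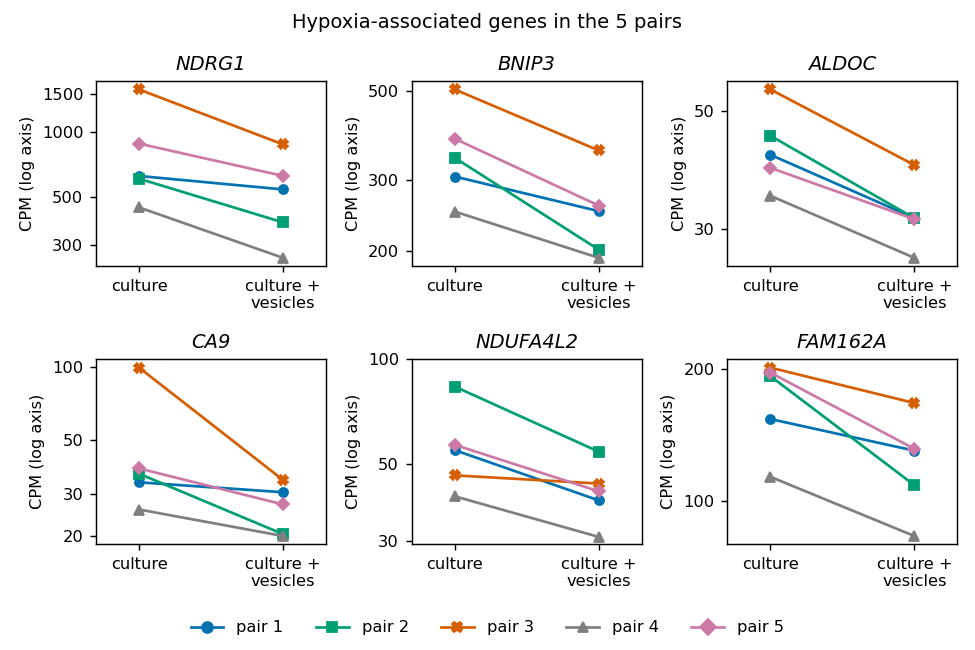
Level in CPM (log axis, a separate range in each panel) of 6 genes known to be induced by low oxygen, with 1 line per pair joining culture to culture with vesicles. Every line slopes down from left to right, and culture 3 was the highest of the 5 cultures for all of these genes but NDUFA4L2. NDRG1, BNIP3, ALDOC, NDUFA4L2 and FAM162A were picked for a small p and one sign in every pair of an analysis. CA9 was picked for a small p within its list. The shared slope is thus in part fixed by that choice. Of the 33 members of the glycolysis and hypoxia list, 16 were lower in all 5 pairs.

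Among the stress and mitochondrial members, NDRG1, a cytoplasmic protein induced by low oxygen, stood at 626, 608, 1580, 447 and 885 CPM in cultures 1 to 5 and at 542, 381, 877, 261 and 626 CPM with vesicles. The groups overlapped, and all 5 pairs were lower with vesicles. Its log2 fold change was -0.60 ± 0.14 [-0.54 ± 0.10], with an interval of -0.93 to -0.27 with 5 pairs. BNIP3, a receptor for the removal of mitochondria, stood at 306, 341, 504, 250 and 380 CPM in cultures 1 to 5 and at 251, 201, 355, 192 and 259 CPM with vesicles. It was lower in 5 of 5 pairs, with overlapping groups and nearly the same size in both analyses (-0.50 ± 0.12 [-0.50 ± 0.09]). DDIT4, an inhibitor of mTORC1, was at -0.47 ± 0.16 [-0.34 ± 0.08].

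Of 2 mitochondrial proteins known as hypoxia-induced that are outside the list, NDUFA4L2 was at 54.7, 83.4, 46.3, 40.3 and 56.7 CPM in cultures 1 to 5 and at 39.2, 54.2, 43.8, 30.8 and 41.7 CPM with vesicles. FAM162A was at 154, 193, 202, 114 and 197 CPM in culture and at 130, 109, 168, 83.1 and 132 CPM with vesicles. Both were lower in 5 of 5 pairs, with pair 3 the smallest difference for NDUFA4L2 (-0.08). NDUFA4L2 was at -0.40 ± 0.13 [-0.49 ± 0.07] and FAM162A at -0.47 ± 0.13 [-0.53 ± 0.10].

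Among enzymes and transporters, ALDOC, a glycolytic aldolase, had the most even difference, at -0.39, -0.51, -0.47, -0.39 and -0.32 in pairs 1 to 5. Its levels were 41.3, 44.9, 54.9, 34.6 and 39.1 CPM in culture and 31.4, 31.4, 39.5, 26.5 and 31.3 CPM with vesicles. Only vesicle library 3 reached the range of the cultures, at 39.5 CPM. PGK1, which makes ATP in glycolysis, was at -0.40 ± 0.14 [-0.28 ± 0.07] and the lactate exporter SLC16A3 at -0.55 ± 0.19 [-0.36 ± 0.07], both lower in 5 of 5 pairs. ALDOC itself was at -0.42 ± 0.11 [-0.41 ± 0.07]. LDHA, which makes lactate, was at -0.20 ± 0.12 [-0.25 ± 0.07], and GAPDH at -0.21 ± 0.15 [-0.28 ± 0.09] (interval -0.56 to 0.13). GAPDH is often used as a reference gene, and it stood at 3646 to 4271 CPM in culture and 3064 to 4077 CPM with vesicles.

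Further members of the list were mostly lower with vesicles. CA9, a surface carbonic anhydrase, was at 33.5, 36.3, 99.8, 25.9 and 38.2 CPM in cultures 1 to 5 and at 30.5, 20.5, 34.3, 20.1 and 27.1 CPM with vesicles. Its difference was largest in pair 3 (-1.54), and its log2 fold change was -0.67 ± 0.21 [-0.46 ± 0.11]. The angiogenic factor VEGFA was at -0.39 ± 0.16 [-0.25 ± 0.08] and the oxygen sensor EGLN1 at -0.27 ± 0.11 [-0.24 ± 0.07]. PDK1, which restrains entry of pyruvate into mitochondria, was lower in the 4 pairs other than pair 3, by -0.19, -0.40, -0.37 and -0.23, and higher in pair 3 (0.74), at -0.10 ± 0.19 [-0.30 ± 0.06]. The member on the upper side without pair 3 was PFKFB4, a regulator of glycolytic flux, at 0.05 ± 0.22 [0.28 ± 0.10], with 0.63 in pair 2 and -0.92 in pair 3.

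**Figure D4:**
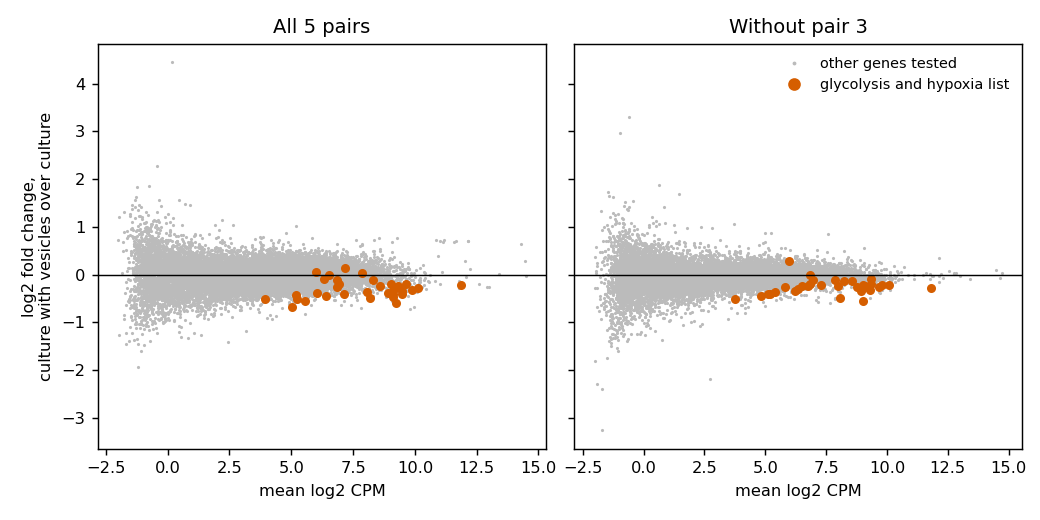
Log2 fold change of culture with vesicles over culture against mean log2 CPM for every gene tested, with all 5 pairs (left) and without pair 3 (right), and the 33 glycolysis and hypoxia genes in orange. Of these, 30 lay below 0 with 5 pairs and 32 without pair 3, at medians of -0.32 and -0.24.

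Mitochondrially encoded genes, the respiratory chain subunits made in the organelle, stood far apart in pair 3. Their share of counts was 7.25%, 7.48%, 0.179%, 6.23% and 6.48% in cultures 1 to 5 and 7.24%, 6.40%, 6.64%, 6.66% and 7.26% with vesicles. The mean was 5.52% ± 3.03 (SD, n = 5) in culture and 6.84% ± 0.388 with vesicles, a difference of 1.32 percentage points (exact sign-flip permutation test over 5 pairs, 2-sided p = 0.5, adjusted p = 0.667 over 4 tests, where the smallest p that 5 pairs allow is 0.0625). Without pair 3 the means were 6.86% ± 0.598 and 6.89% ± 0.429, a difference of 0.0308 points (exact p = 1, where 4 pairs allow 0.125). In pair 3 the log2 difference ran from 4.06 for COX1 to 11.96 for ATP8. With 5 pairs the 13 fitted fold changes were 0.64 to 0.77 with SEs from 0.62 to 1.35, and without pair 3 they lay between -0.03 and 0.04, with 95% intervals no wider than -0.32 to 0.31.

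Nuclear genes of oxidative phosphorylation stayed close to 0, with 15 of 32 higher and 17 lower (median -0.01) and, without pair 3, 9 higher and 23 lower (median -0.03), the lowest at -0.16 and the highest at 0.06. Cytosolic ribosomal proteins were slightly lower as a list. Of 36 members tested, 31 were lower with 5 pairs and 36 without pair 3, at a median of -0.12 in both, with single values without pair 3 from -0.19 to -0.05. At an unadjusted p under 0.05, 0 and 3 of the 36 members were lower (background 1.10% and 2.92%), and 0 were called. With 5 pairs, 7 were lower in every pair (background 2.81%), and without pair 3, 16 were lower in all 4 (background 7.70%). These members can also vary together between libraries, so they are not independent observations to set against the background. RPL23 was at -0.03 ± 0.16 [-0.19 ± 0.07] and RPS19 at -0.20 ± 0.12 [-0.17 ± 0.07]. The share of counts in 82 ribosomal protein genes was 4.62% ± 0.684 (SD, n = 5) in culture and 4.22% ± 0.420 with vesicles, lower in 4 of 5 pairs (exact sign-flip permutation test, p = 0.125, adjusted p = 0.5). Without pair 3 the difference was -0.361 points (exact p = 0.25).

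Matrix-degrading enzymes held the highest single value of any list member in the 5-pair analysis. MMP12, a metalloelastase best known from macrophages, stood at 18.4, 62.2, 18.9, 15.4 and 35.0 CPM in cultures 1 to 5 and at 36.3, 170, 58.2, 15.3 and 69.6 CPM with vesicles. It was higher by 0.98 to 1.62 on the log2 scale in pairs 1, 2, 3 and 5 and level in pair 4 (-0.02), with overlapping groups. Its log2 fold change was 1.01 ± 0.24 [0.88 ± 0.21]. The collagenase MMP13 was higher in 4 of 5 pairs (0.68 ± 0.21 [0.55 ± 0.19]), with 187, 637, 356, 420 and 765 CPM in cultures 1 to 5 and 366, 1285, 791, 534 and 709 CPM with vesicles. MMP7, an epithelial matrix protease, was at 0.29 ± 0.16 [0.35 ± 0.11] and the protease inhibitor SERPINE2 at 0.41 ± 0.16 [0.31 ± 0.13]. The list of proteases and inhibitors as a whole was balanced, with 10 of 22 higher and 12 lower in both analyses (median -0.01, and -0.04 without pair 3).

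Structural matrix genes leaned the other way. Of 29 tested, 22 were lower with 5 pairs (median -0.19) and 18 without pair 3 (median -0.05), with per-pair medians of -0.27, 0.13, -1.09, -0.18 and 0.28. COL1A1, the main fibrillar collagen, was at -0.69 ± 0.34 [-0.31 ± 0.13]. ELN, elastin, was at -0.76 ± 0.32 [-0.43 ± 0.17]. FN1, fibronectin, was higher in 5 of 5 pairs at 0.35 ± 0.13 [0.32 ± 0.09].

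Stromal and immune cell markers differed between libraries by more than they did between conditions. The fibroblast list summed to 1588 to 15069 CPM in culture and 1329 to 11085 CPM with vesicles, with none of 22 markers at 0 in all libraries. Of these, 18 were lower (median -0.34, and -0.20 without pair 3), with medians below 0 in pairs 1 to 4 and 0.51 in pair 5. FBLN1, a matrix glycoprotein, was at -0.55 ± 0.17 [-0.57 ± 0.16], the adventitial fibroblast marker PI16 at -0.51 ± 0.18 [-0.63 ± 0.15], the ferritin receptor SCARA5 at -0.67 ± 0.26 [-0.68 ± 0.26] and the microfibril protein MFAP5 at -0.73 ± 0.32 [-0.97 ± 0.27]. Smooth muscle markers had 16 of 20 lower and 4 higher with 5 pairs, and 15 lower and 5 higher without pair 3 (median -0.19 in both analyses). Their medians were -0.07, 0.09, -0.43, -0.66 and 0.02 in pairs 1 to 5, and 0 markers were lower in every pair. At an unadjusted p under 0.05, 2 of the 20 were lower in each analysis (background 1.10% and 2.92%). At that threshold 0 were higher with 5 pairs and 1 without pair 3 (background 0.475% and 2.13%), where the highest value was 0.31. On the lower side, DES was at -0.42 ± 0.16 [-0.43 ± 0.15], TAGLN at -0.35 ± 0.15 [-0.31 ± 0.12] and ACTA2 at -0.19 ± 0.17 [-0.12 ± 0.16] (interval -0.60 to 0.22). The part of these cell type lists in the matrix and protease values was not tested.

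Macrophage markers had 13 of 18 lower and 5 higher with 5 pairs (median -0.26), and 14 of 18 lower and 4 higher without pair 3 (median -0.28). At an unadjusted p under 0.05, 4 and 3 were lower, against 1.10% and 2.92% of all genes tested. At that threshold 0 markers were higher with 5 pairs and 1 without pair 3. The list summed to 101 to 271 CPM in culture and 97.4 to 220 CPM with vesicles, and 1 marker, MARCO, was at 0 in all 10 libraries. CSF1R, the receptor on which macrophages depend, was lower in 5 of 5 pairs at -0.43 ± 0.14 [-0.43 ± 0.12] (8.54, 14.2, 8.82, 3.14 and 7.63 CPM in cultures 1 to 5, and 6.66, 10.7, 6.39, 2.58 and 4.91 CPM with vesicles). The groups overlapped. The complement component C1QA was at -0.69 ± 0.23 [-0.49 ± 0.20], C1QB at -0.75 ± 0.27 [-0.51 ± 0.23] and the adaptor TYROBP at -0.59 ± 0.23 [-0.46 ± 0.21]. MMP12 lay on the upper side while this list lay on the lower side. The part of this list in the MMP12 difference was not tested.

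Epithelial cell types showed small and mixed values. Principal cells, which absorb and secrete, had 7 of 15 markers higher (median -0.04) and 4 of 15 without pair 3 (median -0.11), and the list summed to 357 to 424 CPM in culture and 342 to 407 CPM with vesicles. The water channels AQP1 and AQP9 were at -0.38 ± 0.14 [-0.41 ± 0.11] (lower in 5 of 5 pairs) and 0.22 ± 0.30 [-0.11 ± 0.17], and the amino acid carrier SLC38A5 at -0.30 ± 0.14 [-0.30 ± 0.11]. Clear cells, which acidify the lumen, had 11 of 14 markers higher (median 0.26) and 9 of 14 without pair 3 (median 0.06). The pairs disagreed, with medians of 0.02, 0.21, 0.28, -0.42 and 0.74 in pairs 1 to 5. The list summed to 837 to 2230 CPM in culture and 968 to 2226 CPM with vesicles, and was lower with vesicles in pairs 1, 4 and 5. The markers with the smallest p were KIT at 0.37 ± 0.18 [0.41 ± 0.17] and the ammonium transporter RHCG at 0.29 ± 0.14 [0.29 ± 0.11]. Basal cells had 6 of 15 markers higher (median -0.03) and 11 of 15 without pair 3 (median 0.05). KRT5, their keratin, was at -0.14 ± 0.32 [0.16 ± 0.21], with an interval of -0.88 to 0.60. EPCAM, on all epithelial cells, was at 0.03 ± 0.16 [-0.10 ± 0.11]. CLDN2, which forms cation pores at tight junctions, was at 0.62 ± 0.22 [0.69 ± 0.21] and higher in 5 of 5 pairs, by 0.20 to 1.45.

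Genes of cholesterol synthesis and uptake were slightly higher by their median. Of 30 tested, 20 were higher in both analyses (medians 0.11 and 0.08). There were 3 higher in all 5 pairs (background 2.67%) and 0 lower in all 5 (background 2.81%). Single values with 5 pairs ran from -0.54 to 0.47. Without pair 3, 5 were higher (background 2.13%) and 1 lower (background 2.92%) at an unadjusted p under 0.05. The medians were 0.14, 0.12, 0.37, 0.03 and -0.05 in pairs 1 to 5, so pair 3 was the largest and pair 5 lay below 0. The summed level of the list went otherwise. It was higher with vesicles in pairs 1, 2 and 5 and lower in pair 3 (3969 against 4169 CPM) and pair 4 (3707 against 3756 CPM). The synthesis enzyme SQLE was higher in 5 of 5 pairs at 0.25 ± 0.11 [0.20 ± 0.06], HMGCS1 was at 0.28 ± 0.17 [0.11 ± 0.08] and LSS at 0.14 ± 0.15 [0.27 ± 0.08].

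**Figure D5:**
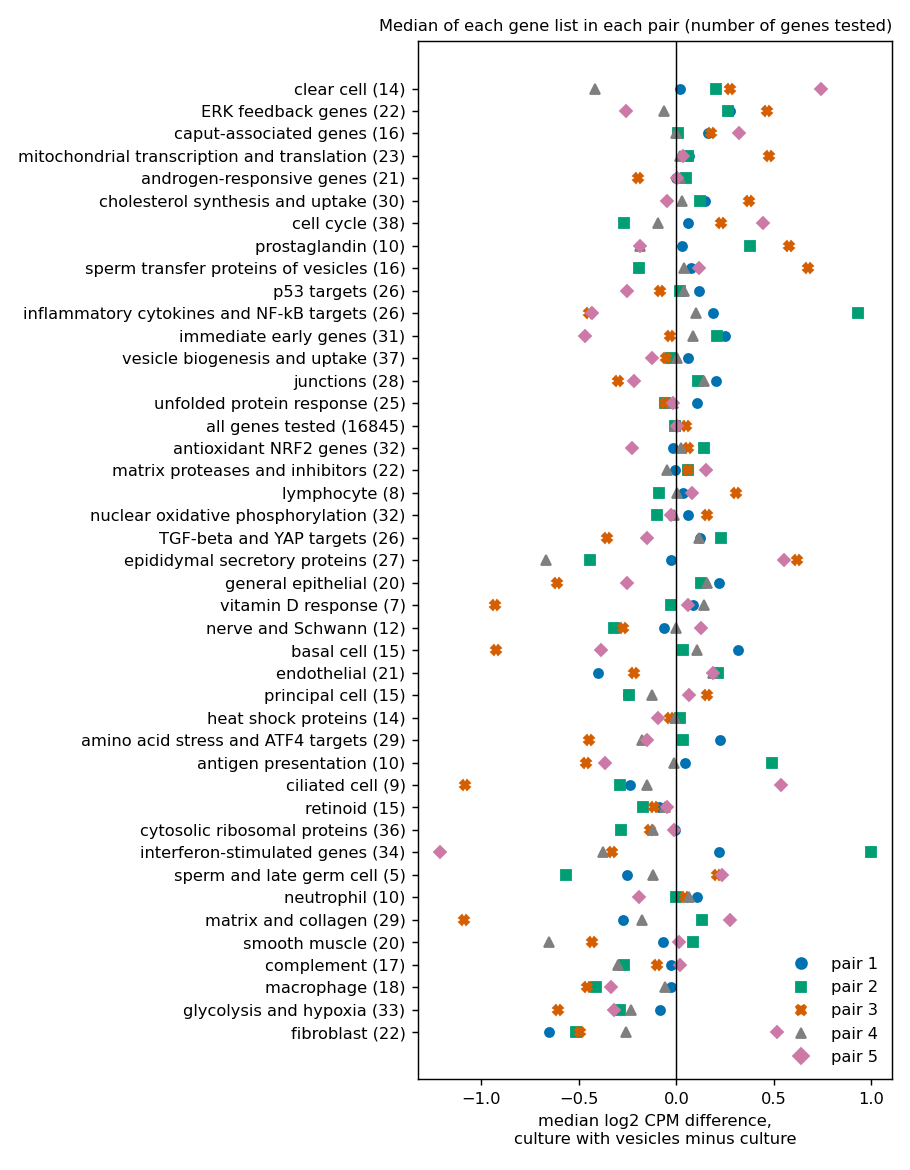
Median log2 CPM difference of each gene list in each pair (symbols), with the number of genes tested in brackets, ordered by the median fold change over 5 pairs and with the mitochondrially encoded list left out. The glycolysis and hypoxia, macrophage, cytosolic ribosomal protein and retinoid lists lay below 0 in all 5 pairs, while the interferon-stimulated list ran from -1.21 in pair 5 to 1.00 in pair 2.

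Inflammatory and antiviral genes differed in opposite directions between pairs. Interferon-stimulated genes had medians of 0.22, 1.00, -0.33, -0.38 and -1.21 in pairs 1 to 5, and 12 of 34 were higher with 5 pairs (median -0.13) and 8 of 34 without pair 3 (median -0.11). ISG15, a ubiquitin-like antiviral protein, stood at 59.6, 38.1, 62.0, 24.4 and 248 CPM in cultures 1 to 5 and at 68.8, 108, 11.1, 11.4 and 58.2 CPM with vesicles. It was higher in pairs 1 and 2 and lower in the others, at -0.83 ± 0.60 [-0.36 ± 0.55] with an interval of -2.23 to 0.58. OASL and RSAD2, also antiviral effectors, were at -0.72 ± 0.49 [-0.47 ± 0.50] and -0.69 ± 0.51 [-0.66 ± 0.57], with the same signs pair by pair. Inflammatory cytokines and NF-kB targets had medians of 0.19, 0.93, -0.45, 0.10 and -0.43 in pairs 1 to 5. Of 26 genes, 14 were higher with 5 pairs (median 0.03) and 22 without pair 3 (median 0.13). The cytokine IL6 was at 0.48 ± 0.22 [0.42 ± 0.22] and the neutrophil attractant CXCL8 at 0.54 ± 0.36 [0.25 ± 0.31], each higher in 4 of 5 pairs.

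Genes of the vesicle pathway and of hormone response were near evenly split. Vesicle biogenesis and uptake genes had 19 of 37 higher (median 0.02) and, without pair 3, 16 of 37 (median -0.02). The tetraspanin CD9, abundant on vesicles, was at 0.15 ± 0.16 [0.01 ± 0.10], with an interval of -0.23 to 0.24 without pair 3. The endocytic GTPase DNM2 was at 0.08 ± 0.18 [0.25 ± 0.08] and the vesicle-associated GTPase ARF6 at -0.26 ± 0.14 [-0.14 ± 0.06], the latter lower in 5 of 5 pairs. Androgen-responsive genes had 13 of 21 higher (median 0.11) and 12 of 21 without pair 3 (median 0.02). This list also holds NDRG1, which DESeq2 called as lower without pair 3. GREB1 was at 0.74 ± 0.40 [1.05 ± 0.32] and PMEPA1, also a feedback inhibitor of TGF-beta signalling, at 0.22 ± 0.16 [0.36 ± 0.09]. Feedback genes of the ERK pathway had 20 of 22 higher (median 0.13) and 16 of 22 without pair 3 (median 0.07), with 0 members at an unadjusted p under 0.05 in the 5-pair analysis and medians below 0 in pairs 4 and 5.

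Proliferation and stress genes were bounded more tightly without pair 3. MKI67, present in dividing cells, was at 0.02 ± 0.17 [0.13 ± 0.13], and the replication clamp PCNA at 0.33 ± 0.30 [-0.01 ± 0.09], with an interval of -0.22 to 0.19 without pair 3. PCNA stood at 22.6 CPM in culture 3 and at 56.6 to 101 CPM in the other 9 libraries. The endoplasmic reticulum chaperone HSPA5 was at -0.13 ± 0.13 [-0.08 ± 0.09], ATF4 of the amino acid stress response at -0.10 ± 0.15 [0.02 ± 0.09], and the immediate early gene FOS at 0.10 ± 0.16 [0.09 ± 0.15]. The prostaglandin transporter SLCO2A1 was higher in 5 of 5 pairs at 0.30 ± 0.12 [0.28 ± 0.09]. In the retinoid list, 10 of 15 members were lower (median -0.12) and 11 of 15 without pair 3 (median -0.07), and RBP4, a retinol carrier, was lower in 5 of 5 pairs at -0.60 ± 0.21 [-0.57 ± 0.20] beside CRABP1.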

How the data were processed

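Per the labels' protocols, TruSeq Stranded mRNA libraries were built from RNA isolated with a Qiagen kit. The authors deposited raw, whole-number counts for 38995 genes in a single table. Tools named in the submitters' processing notes, with no role given, are StringTie 2.1.3b, Bowtie2 2.3.4.1, HISAT2 2.1.0 and Trimmomatic 0.38. Not given in the sources used here are the build, the annotation, the counting program and its strand setting, so reads of overlapping antisense genes may not have been told apart. Gene names came from RefSeq's table for assembly F.catus_Fca126_mat1.0, to which all 38995 identifiers matched.

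Genes were filtered with filterByExpr (minimum count 10, minimum total 15), scaled by TMM and tested 2-sided in edgeR 4.0.16 (R 4.3.3), with the replicate number as a block and Benjamini-Hochberg adjustment over all genes tested. Fold changes are log2 of culture with vesicles over culture, and SEs are the absolute fold change over the square root of F. The estimator weights libraries by their counts, so a gene near 0 in 1 library has a smaller fitted value than the mean of its pair differences. Pair differences are log2 CPM with a prior count of 2. Shares of counts were compared by exact sign-flip tests (scipy 1.17.1, Python 3.11.15). Replicate numbers come from the titles. The comparison was set beforehand as same-numbered pairs. Deviations of same-numbered libraries from their group means correlated at 0.184 (pair 3) to 0.655. Those of differently numbered libraries correlated at -0.454 to 0.144, so pair 3 lay only slightly above that range. The edgeR test was checked on simulated counts with the same dispersion for all genes. Libraries of a pair shared their means there, apart from the changes put in. The check therefore does not cover a library that stands apart as culture 3 does.

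The alternatives were DESeq2 1.42.0, limma-voom (limma 3.58.1) with quality weights, other scalings and filters, robust shrinkage, fresh libraries added, mitochondrially encoded genes left out, no block, and each replicate left out. The members and the 44 gene lists were chosen with earlier results of these data known. Named genes were the 10 with the smallest p and one sign in every pair of each analysis, up to 4 and 2 members of each described list, the mitochondrially encoded genes and a set of fixed genes. SLC16A3, PGK1, PDK1, LDHA, VEGFA, EGLN1, PFKFB4, DDIT4, ECE1 and HDHD5 were named after their values were seen. No sequence or gene position was used. Some genes that the rule names are not reported here.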

Additional observations from a re-analysis of the deposited data

Results flagged for a closer look

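In 5 values the lowest or highest can stand far from the other 4, and by Dixon's criterion at the 95% level chance alone marks about 1 in 20 such groups. The mitochondrially encoded share of culture 3 (0.179%) stood apart from the other 4 cultures. The 95 named genes are not a random set, so a count over them cannot be set against that chance rate. Some were named for a small p and one sign in the 4 pairs other than pair 3, which favours a value apart in pair 3. Others were named after their values were seen, and the mitochondrially encoded ones share the low counts of culture 3. Of the 95 named genes, the pair differences of 28 held a value that stood apart, and 27 of the 28 were in pair 3. All 13 mitochondrially encoded genes were among them, with log2 differences in pair 3 of 6.41 for ND1, 8.31 for ND2, 8.38 for ND3, 5.76 for ND4, 7.36 for ND4L, 6.41 for ND5, 4.20 for ND6, 4.06 for COX1, 5.49 for COX2, 5.65 for COX3, 8.54 for ATP6, 11.96 for ATP8 and 6.66 for CYTB.

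Nuclear genes with a pair 3 difference apart from the other 4 pairs and above 0 were CRISP1 (2.14), PCNA (1.81), PDK1 (0.74) and RPL23 (0.61). Those below 0 were COL7A1 (-2.75), SLC16A3 (-1.34), CD1H11orf71 (-1.28), VWA1 (-1.03), PGK1 (-0.88), ARF6 (-0.76), PIP5K1C (-0.76), ECE1 (-0.56), JCAD (-0.53) and UPK3BL2 (-0.31). The remaining gene was SCARA5, where pair 5 stood apart at 0.36. Whether the pair 3 values of the nuclear genes have the same source as its mitochondrially encoded counts was not tested.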

How the results depend on the processing

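The count of called genes was 0 under every alternative, each replicate left out in turn included, with the exceptions of limma-voom with 5 pairs (1 gene) and DESeq2 without pair 3 (14 genes). Without the replicate block 0 genes were called in both analyses, and 55 and 88 genes had an unadjusted p under 0.05, against 266 and 858 with it. The difference in mitochondrially encoded share ran from 0.0308 (without replicate 3) to 1.92 points as each pair was left out, and the ribosomal protein share from -0.532 to -0.266. Without the pairing the exact permutation p was 0.516 and 0.302. The count of glycolysis and hypoxia genes lower with vesicles stayed at 29 to 32 of 33 under all alternatives. The count at an unadjusted p under 0.05, followed through the alternatives after the data were seen, moved more. With 5 pairs (12 genes) it was 3 without the replicate block, 7 with fresh libraries added, 22 with limma-voom, 1 without the block and culture 3, and 5 to 22 as each pair was left out. Without pair 3 (22 genes) it was 6 without the block, 14 with fresh libraries added, and 11 to 24 as each further pair was left out. Of 2822 recomputed values of 95 genes, 97 changed sign, and in 4 the value before or after had an unadjusted p under 0.05. COL7A1 with 5 pairs was 0.45 with limma-voom, -0.27 to 0.50 as each pair was left out and 0.42 without the block and culture 3, and CRABP1 was 0.20 without the block and culture 3, where replicate 3 with vesicles has no partner. The causes were not tested. Total counts overlapped between the conditions, and 4 or 3 residual degrees of freedom limit all tests.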

Other observations

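Gene lists whose fold changes are not described above held no member that edgeR called in either analysis. For each, the number of genes higher with vesicles and the median log2 fold change with 5 pairs are followed in square brackets by those without pair 3, against medians over all genes tested of 0.01 and -0.01. Complement genes had 4 of 17 genes higher (median -0.20) [4, median -0.12], neutrophil markers 4 of 10 (median -0.14) [5, median -0.0017], sperm and late germ cell markers 1 of 5 (median -0.14) [1, median -0.04], ciliated cell markers 4 of 9 (median -0.11) [4 of 8, median -0.03] and antigen presentation genes 3 of 10 (median -0.08) [4, median -0.02]. Genes of mitochondrial transcription and translation had 14 of 23 genes higher (median 0.11) [16, median 0.07], cell cycle genes 25 of 38 (median 0.10) [21, median 0.01], prostaglandin genes 6 of 10 (median 0.08) [6, median 0.06] and vesicle proteins transferred to sperm 10 of 16 (median 0.06) [6, median -0.03]. The first of these had a median above 0 in all 5 pairs, from 0.02 to 0.47.

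In the following lists more genes were higher without pair 3 than with 5 pairs. General epithelial markers had 8 of 20 genes higher (median -0.03) [15, median 0.06], junction genes 16 of 28 (median 0.01) [21, median 0.06], endothelial markers 10 of 21 (median -0.03) [15, median 0.05], TGF-beta and YAP targets 13 of 26 (median -0.01) [15, median 0.09], amino acid stress and ATF4 targets 11 of 29 (median -0.07) [17, median 0.02] and vitamin D response genes 3 of 7 (median -0.03) [6, median 0.03]. Among the remaining lists, genes of the unfolded protein response had 15 of 25 genes higher (median 0.01) [14, median 0.03], heat shock proteins 5 of 14 (median -0.06) [3, median -0.02], antioxidant genes under NRF2 16 of 32 (median 0.0048) [16, median 0.00077], immediate early genes 16 of 31 (median 0.02) [19, median 0.04], nerve and Schwann cell markers 5 of 12 (median -0.03) [3, median -0.06] and lymphocyte markers 3 of 8 (median -0.0054) [4 of 10, median -0.09]. Targets of p53 had 14 of 26 higher (median 0.03) with 5 pairs and 13 without pair 3.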
